A study of Arabidopsis thaliana with 29 samples.

Results

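The effect of a single ABA spray on leaf transcript levels was followed from 6 to 24 h. For every gene, the difference between ABA and DMSO at 24 h was set against the difference between ABA and DMSO at 6 h, and the gap between these differences, the interaction of treatment and time, was tested. A negative interaction means that the ABA level, relative to the DMSO level of the same time, was lower at 24 h than at 6 h, and a positive one means that it was higher. The comparison used 12 of the 29 RNA-seq libraries of the study, 3 in each of 4 groups, and no library of another compound. All were from leaves of 3-week-old Col-0 wild-type Arabidopsis plants grown in soil. Plants of the ABA groups had been sprayed with 10 μM ABA and those of the DMSO groups with the solvent alone at 0.05%, and the groups were collected 6 h (DMSO 6 h, ABA 6 h) or 24 h (DMSO 24 h, ABA 24 h) later. Of the 33559 genes in the authors' table, 17741 had at least 1 FPKM in at least 2 of the 12 libraries and were tested. FPKM, the fragments of a gene scaled to its transcript length and to the mapped fragments of the library, was the unit the authors deposited, and all differences below are on the log2(FPKM + 1) scale, which understates the changes of genes with low FPKM.

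ABA is the hormone by which plants respond to drought. It binds PYR/PYL receptors, which then block clade A protein phosphatases (PP2Cs). This frees SnRK2 kinases to phosphorylate ABF transcription factors, which bind ABRE elements with an ACGTG core in the promoters of dehydration genes. The pathway limits itself, since ABA also raises transcripts of the PP2Cs and of the CYP707A hydroxylases that break ABA down. The question of the comparison is which of the transcript differences seen soon after a spray were smaller, as large or larger a day later.

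The FPKM values of a library summed to 841045 to 1140081, and 16391 to 16759 genes had 1 FPKM or more. Relative depth, estimated from the steps between low values because FPKM holds no read totals, ran from 0.747 to 1.33 times the median library. No libraries were identical (0 pairs), and libraries correlated with those of their own group at a mean r of 0.982 to 0.992. The leaf genes RBCS1A, LHCB1.3 and CA1 were at 1159 FPKM or above in every library, while markers of root, flower and shoot meristem were at or near 0, with maxima of 1.01 FPKM for the root gene PYK10 and 1.09 FPKM for the flower gene AG. In bulk RNA, fewer cells of a type and less RNA per cell cannot be told apart. Whether the 3 libraries of a group stand for independently treated plants is not stated in the labels, and the p-values cover the variation among these libraries, which may be technical. The DMSO 6 h libraries were not alike in a group of genes that vary with the time of day. LHY, a clock transcription factor, was at 27.9, 10.6 and 0.436 FPKM in DMSO 6 h replicates 1, 2 and 3 and between 0.433 and 0.713 FPKM in the ABA 6 h libraries. Among the ABA 6 h libraries, replicate 2 was the nearest to DMSO over the genes called lower in the interaction. Its median difference from the DMSO 6 h mean was 1.17 there, where replicates 1 and 3 were at 1.72 and 1.61. These genes were picked with the same libraries. Over all genes tested, the medians of ABA 6 h replicates 1, 2 and 3 were 0.04, -0.01 and 0.01.

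A gene was called when its adjusted p (limma, Benjamini-Hochberg over all genes tested) was under 0.05 and its difference exceeded 2-fold. The interaction was called for 756 genes. It was negative for 468 of them (2.64% of the genes tested) and positive for 288 (1.62%). At 6 h, ABA was higher than DMSO in 688 genes (3.88%) and lower in 587 (3.31%), and at 24 h it was higher in 37 (0.209%) and lower in 56 (0.316%). The balance at 24 h turned without DMSO 24 h replicate 2 (22 higher, 10 lower), ABA 24 h replicate 2 (7 higher, 4 lower) or ABA 24 h replicate 3 (12 higher, 9 lower). Of the 688 genes higher at 6 h, 22 were again called higher at 24 h, and 369 had a negative interaction. Their median difference was 1.49 at 6 h and 0.14 at 24 h, where the middle 50% of these genes lay between -0.15 and 0.47. Of the 587 genes lower at 6 h, 18 were again called lower at 24 h and 176 had a positive interaction, and their median went from -1.29 to -0.14. None (0 genes) was called in the opposite direction at 24 h. These medians describe genes picked at 6 h and share their libraries with the interaction.

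**Figure D1:**
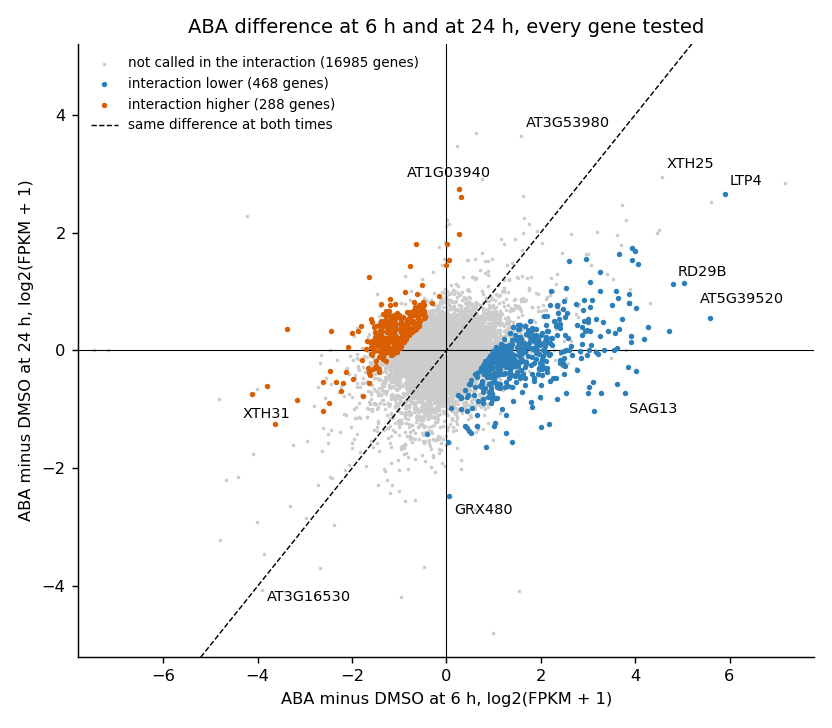
Difference between ABA and DMSO at 6 h (horizontal axis) and at 24 h (vertical axis), in log2(FPKM + 1), for each of the 17741 genes tested. The 468 genes with a negative interaction (blue) lie to the right and below the dashed line of equal differences, most of them near 0 on the vertical axis, and the 288 with a positive interaction (orange) lie to the left and above it.

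The number of calls depended on single libraries. It was 198 without ABA 6 h replicate 3, 272 without DMSO 24 h replicate 1, 276 without ABA 6 h replicate 1, 308 without ABA 24 h replicate 3, 353 without DMSO 6 h replicate 2, 427 without ABA 24 h replicate 1 and 1301 without DMSO 24 h replicate 3. With DMSO 6 h replicate 3 as the only 6 h control, 318 genes were called, 14.8% of them positive in place of 38.1%. Of the 468 negative calls, 155 were made in each of the 12 fits that left out 1 library, and of the 288 positive calls 31 were.

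The same interaction can come from a change in the ABA libraries, from an opposite change in the DMSO libraries, or from both, and the treatments were therefore also followed over time on their own. Between 6 and 24 h, 1096 genes rose with ABA (6.18%) and 1287 fell (7.25%), and 1467 rose with DMSO (8.27%) and 1236 fell (6.97%). Time since spraying and time of day cannot be told apart within a treatment, and the interaction takes the DMSO change away. Where DMSO and ABA libraries of the same time differed, as for LHY at 6 h, that difference stays in the interaction, whatever its source. Of the 468 genes with a negative interaction, 257 fell with ABA, 210 of them with no call in DMSO, and 133 rose with DMSO. Their median change was -1.18 with ABA and 0.50 with DMSO. The positive interactions had another make-up. Of the 288 genes, 51 rose with ABA and 123 fell with DMSO, with median changes of 0.44 and -0.94. Among them were 89 ribosomal protein genes, of which 1 rose with ABA and 46 fell with DMSO. Of the other 199 genes, 50 rose with ABA and 77 fell with DMSO, so the gap between the treatments was smaller there. A fall with ABA was the more frequent call among the negative interactions, and a fall with DMSO among the positive ones. No call in either treatment was made for 96 and 117 genes. The interaction is the ABA change minus the DMSO change in the same libraries. Genes picked by it must therefore lean to these directions, and the counts only describe which treatment held more of the calls.

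**Figure D2:**
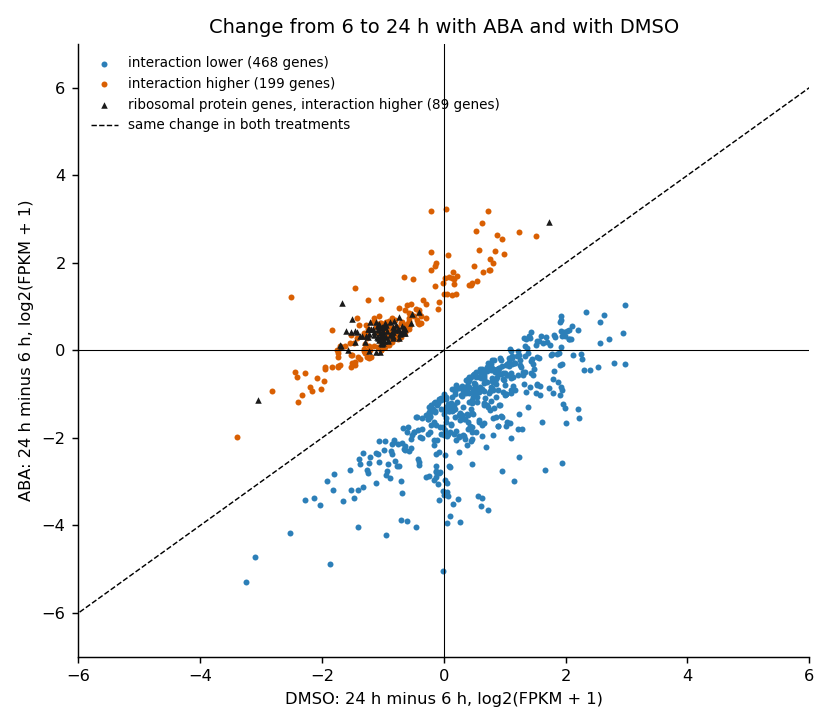
Change from 6 to 24 h in the DMSO libraries (horizontal axis) and in the ABA libraries (vertical axis), in log2(FPKM + 1), for the 756 genes called in the interaction. Negative interactions (blue, 468 genes) spread downwards along the ABA axis. Positive ones (orange, 199 genes, and black triangles, 89 ribosomal protein genes) had a median change of -0.94 with DMSO and 0.44 with ABA. A rise with ABA was called for 50 of the 199 and 1 of the 89.

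The most negative interaction, -5.02 (SE 0.62, adjusted p = 0.0035 in limma), was that of AT5G39520, a gene of unknown function. It was at 0, 0.24 and 1.13 FPKM in DMSO 6 h replicates 1, 2 and 3 and at 101, 33.2 and 82.3 FPKM with ABA, and at 24 h it was at 0.603, 0.303 and 0.227 FPKM with DMSO and at 0.804, 2.52 and 0.284 FPKM with ABA. Every ABA library was above every DMSO library at 6 h, and the groups overlapped at 24 h. SAG13, an alcohol dehydrogenase-like gene of senescing leaves, was at 3.29, 1.84 and 5.24 FPKM with DMSO and 97.1, 31.2 and 61.2 FPKM with ABA at 6 h. At 24 h SAG13 was at 13.3, 19.1 and 13.8 FPKM with DMSO and at 8.77, 10.2 and 7.72 FPKM with ABA, so that the ABA libraries lay above DMSO at the earlier time and below it at the later one. Its interaction was -4.50 (SE 0.51, adjusted p = 0.0023), and the difference at 24 h, -0.72, did not pass the test. The smallest p belonged to AT3G03341, of unknown function, whose level with ABA was 100.5 to 126 FPKM at 6 h and 14.2 to 19.9 FPKM at 24 h. With DMSO it rose from between 3.1 and 3.59 FPKM to between 11.8 and 13.9 FPKM, and the interaction was -4.39 (SE 0.21, adjusted p = 1.8e-06).

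Other genes with a large negative interaction were enzymes and a transcription factor. FMO GS-OX4, a flavin monooxygenase that oxidizes glucosinolates, went from 160, 109 and 164 FPKM to 6.52, 11.3 and 8.02 FPKM with ABA, while DMSO stayed between 8.73 and 18.5 FPKM. Its interaction was -4.18 (SE 0.37, adjusted p = 0.00064). CYP89A9, a cytochrome P450 that acts on chlorophyll catabolites, had an interaction of -4.15 (SE 0.43), and RNS1, a secreted ribonuclease, one of -4.00 (SE 0.50). XTH24, which remodels cell wall xyloglucan, was at 535, 224 and 493 FPKM with ABA at 6 h and at 68, 36.9 and 45.4 FPKM at 24 h, with an interaction of -4.13 (SE 0.47). The transcripts of LBD1, a LOB domain transcription factor, behaved alike with an interaction of -3.76 (SE 0.58), but this call was lost under 1 of 25 other settings (highest adjusted p = 0.052). The interactions of FMO GS-OX4, CYP89A9, RNS1, XTH24, AT5G39520, SAG13 and AT3G03341 were called under each of the 25 settings. The setting of adjusted p alone drops the limit on the fold and cannot end a call, here or below.

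Sequence before the start of the gene is shown for the 6 named genes with the largest interactions that hold an ABRE-type match there, because ABF factors are known to bind elements of this kind. Matches of ACGTGGC or ACGTGTC, on either strand, are in capitals within the 250 bases before the annotated gene start, read 5′ to 3′ on the strand of the gene from the RefSeq genome TAIR10.1.
AT5G39520 (chr5:15825567-15825816, minus strand): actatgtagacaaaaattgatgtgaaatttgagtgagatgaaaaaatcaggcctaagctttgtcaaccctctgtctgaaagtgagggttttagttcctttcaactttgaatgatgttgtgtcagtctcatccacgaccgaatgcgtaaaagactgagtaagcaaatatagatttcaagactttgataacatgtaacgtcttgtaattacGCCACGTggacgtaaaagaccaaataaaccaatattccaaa
SAG13 (chr2:12600664-12600913, plus strand): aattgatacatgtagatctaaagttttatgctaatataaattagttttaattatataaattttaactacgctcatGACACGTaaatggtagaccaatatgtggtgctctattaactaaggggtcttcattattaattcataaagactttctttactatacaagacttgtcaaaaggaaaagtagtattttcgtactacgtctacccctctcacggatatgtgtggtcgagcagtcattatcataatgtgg
LBD1 (chr1:2442320-2442569, plus strand): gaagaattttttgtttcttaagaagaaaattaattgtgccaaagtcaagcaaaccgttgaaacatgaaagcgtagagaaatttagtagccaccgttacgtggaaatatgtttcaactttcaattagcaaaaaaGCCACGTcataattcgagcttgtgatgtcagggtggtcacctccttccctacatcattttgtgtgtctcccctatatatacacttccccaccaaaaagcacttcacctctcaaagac
RD29B (chr5:21236771-21237020, plus strand): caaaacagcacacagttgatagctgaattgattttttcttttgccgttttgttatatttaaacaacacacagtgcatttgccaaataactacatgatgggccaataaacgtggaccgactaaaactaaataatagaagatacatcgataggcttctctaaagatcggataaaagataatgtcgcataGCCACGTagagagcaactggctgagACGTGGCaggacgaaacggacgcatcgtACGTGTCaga
LEA4-5 (chr5:2090431-2090680, minus strand): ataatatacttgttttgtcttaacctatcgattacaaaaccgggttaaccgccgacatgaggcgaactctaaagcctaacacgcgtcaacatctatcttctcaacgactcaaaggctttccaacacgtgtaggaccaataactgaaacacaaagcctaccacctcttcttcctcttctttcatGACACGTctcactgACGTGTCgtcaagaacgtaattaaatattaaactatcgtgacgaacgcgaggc
NAC019 (chr1:19698483-19698732, minus strand): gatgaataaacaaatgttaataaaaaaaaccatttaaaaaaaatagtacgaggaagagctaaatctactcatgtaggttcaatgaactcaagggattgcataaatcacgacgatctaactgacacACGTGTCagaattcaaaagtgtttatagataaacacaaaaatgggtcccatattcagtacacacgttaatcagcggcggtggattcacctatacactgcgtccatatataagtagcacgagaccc

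RD29B held 3 matches, the nearest starting 10 bases before the gene, and LEA4-5 held 2, starting 67 and 53 bases before it. Windows were read for 17415 of the 17741 genes tested. ACGTGGC or ACGTGTC was found in 72 of the 468 windows of genes with a negative interaction (15.4%), in 13 of 287 with a positive interaction (4.53%) and in 1333 of all 17415 (7.65%). Among the 317 genes that were higher with ABA at 6 h but not called in the interaction the share was 12.3%. CACGTG, the G-box, which can overlap both, was in 14.5%, 4.18% and 7.6% of the negative, positive and all windows. CCGAC, the core of the DRE element bound by cold and drought factors, was in 15%, 11.8% and 13.4%, and AAATATCT, the evening element of clock-regulated genes, in 7.48%, 3.83% and 5.21%. These are counts of letters in a window, and no difference between the shares was tested.

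The core of the ABA pathway was followed from receptor to transcription factor. Among the 8 measured receptors, no interaction was called (0 genes; list median -0.14, all genes tested -0.05). PYL4 was at 23.2, 21.5 and 22.1 FPKM with DMSO and 6.77, 4.16 and 3.77 FPKM with ABA at 6 h, and at 28.1, 39 and 37.9 FPKM with DMSO and 15.5, 15.6 and 10.2 FPKM with ABA at 24 h. ABA libraries were below DMSO libraries at both times, with differences of -2.02 (SE 0.21, adjusted p = 0.00013) and -1.29 (SE 0.21, adjusted p = 0.024). The PYL4 call at 24 h was lost under 6 of 25 other settings (adjusted p up to 0.0925). For PYL2 the DMSO 6 h libraries read 209, 67.8 and 2.89 FPKM, the order seen for LHY, and its interaction of 3.36 (SE 1.51) did not pass the test (adjusted p = 0.21).

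Of the 7 measured clade A PP2Cs, which hold SnRK2 kinases inactive, 6 were higher with ABA at 6 h and none (0 genes) at 24 h. A negative interaction was called for 4 (list median -1.53). Over all genes tested, 3.88% were higher at 6 h, 0.209% were higher at 24 h and 2.64% had a negative interaction. No call at 24 h therefore does not set a list this short apart. The same shares apply to the lists that follow. ABI1 was at 54.4, 51.3 and 39.9 FPKM with DMSO and 157, 128 and 181 FPKM with ABA at 6 h, and at 57.1, 62.2 and 46 FPKM with DMSO and 58.5, 69.3 and 52.7 FPKM with ABA at 24 h. The 6 h groups did not overlap and the 24 h groups did. Its interaction was -1.53 (SE 0.26, adjusted p = 0.010), and the difference at 24 h was 0.13 with a 95% interval from -0.27 to 0.53. HAI1 was at 7.31, 1.67 and 3 FPKM with DMSO and at 64.8, 56.8 and 107 FPKM with ABA at 6 h. At 24 h HAI1 read 16.5, 14.3 and 7.95 FPKM with DMSO and 27.8, 56 and 29.7 FPKM with ABA, and every ABA library was above every DMSO library at both times. Its 24 h difference of 1.46 did not pass the test (adjusted p = 0.15), and its interaction, -2.59 (adjusted p = 0.030), was lost under 11 of 25 settings (adjusted p up to 0.087). ABI2 and HAI2 were also called, at -1.82 and -1.94, the former lost in the fits that left out ABA 6 h replicate 1 (adjusted p = 0.052), ABA 6 h replicate 3 (0.0625) or ABA 24 h replicate 3 (0.051) and the latter under 10 of 25 settings. Between the 12 fits that left out a library, 1 to 7 PP2Cs were called. PP2CA and HAB1, at -1.22 and -1.48, missed the threshold (adjusted p = 0.051 and 0.066), and DMSO levels of 5 of the 7 PP2Cs rose from 6 to 24 h.

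SnRK2 kinases, the next step, differed little. Of 8 measured, SNRK2.7 was the gene with a call, at -2.13 (SE 0.46, adjusted p = 0.025, lost under 6 of 24 settings), and the list median was -0.20. The next 11 measured genes were ABF-type factors, AFP repressors and the bZIP factor GBF3, which act on promoters or on factors binding them. Against 2.64% of all genes tested, 4 of these 11 had a negative interaction (list median -1.08). They were AFP1 at -2.84, GBF3 at -1.93, AFP3 at -1.80 and ABI5 at -1.08, and the AFP3 call ended without ABA 6 h replicate 3 (adjusted p = 0.054). Those of AFP1, GBF3 and ABI5 were lost under 5 of 25, 6 of 25 and 5 of 23 settings, with adjusted p up to 0.064, 0.11 and 0.070. ABF3, which was higher with ABA at 6 h by 1.59, had an interaction of -1.31 that did not pass the test (adjusted p = 0.054), and its DMSO level rose from 14.8 to 24 FPKM at 6 h to 57.4 to 92.1 FPKM at 24 h. Without 1 library at a time, 0 to 7 of these 11 genes were called.

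Transcription factors of the stress response had more interaction calls than any other of the 28 hand-written lists, though not the largest share of members. Of 22 measured, 13 were higher with ABA at 6 h, none (0 genes) at 24 h, and 12 had a negative interaction (list median -1.54). The shares over all genes tested were 3.88%, 0.209% and 2.64%, so the lack of 24 h calls does not set this list apart. NAC019, a NAC factor induced by ABA and jasmonate, was at 17.3, 7.69 and 7.83 FPKM with DMSO and 186, 84.8 and 197 FPKM with ABA at 6 h, and at 9.04, 6.8 and 3.13 FPKM with DMSO and 6.49, 10.6 and 10.3 FPKM with ABA at 24 h. The groups were far apart at 6 h and overlapped at 24 h, and the interaction was -3.18 (SE 0.58, adjusted p = 0.015). RD26, a related NAC factor, was at 10.6, 8.53 and 8.05 FPKM with DMSO and at 68.3, 50.5 and 89.4 FPKM with ABA at 6 h. At 24 h RD26 read 25.6, 28.4 and 11.9 FPKM with DMSO and 13.8, 18.9 and 16.2 FPKM with ABA, and the interaction was -3.11 (SE 0.41, adjusted p = 0.0043). ORE1, a NAC factor that drives leaf senescence, went with ABA from 28.6, 10.9 and 20.5 FPKM to 1.21, 0.833 and 0.906 FPKM, where all 3 libraries lay below the DMSO libraries of 6.42, 3.59 and 2.37 FPKM. Its interaction was -3.31 (SE 0.47, adjusted p = 0.0056), while the difference of -1.30 at 24 h did not pass the test (adjusted p = 0.10). Of this list, 4 to 12 genes were called when a library was left out.

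Genes that protect cells during drying were followed next. Of 14 measured dehydration and cold markers, 9 were higher with ABA at 6 h and 1, KIN1, at 24 h. The KIN1 call was lost under 10 of 25 settings. A negative interaction was called for 6 markers (list median -1.29). Among all genes tested, 3.88%, 0.209% and 2.64% were called in these ways. RD29B, the classical ABA reporter gene whose window is printed above, was at 0.729, 0.581 and 1.83 FPKM with DMSO and 61.5, 35.2 and 72.8 FPKM with ABA at 6 h, and at 2.35, 4.93 and 4.15 FPKM with DMSO and 8.12, 17.7 and 5.15 FPKM with ABA at 24 h. ABA libraries were above DMSO libraries at both times. The interaction was -3.68 (SE 0.57, adjusted p = 0.0078), lost when DMSO 6 h replicate 3 was the only 6 h control (adjusted p = 0.061), and the difference of 1.12 left at 24 h did not pass the test (adjusted p = 0.25). XERO2, a dehydrin, went from 186 to 238 FPKM with ABA to 4.85 to 7.18 FPKM, below the 24.5 to 25.9 FPKM of DMSO at 6 h, and DMSO also fell, to 4.01 to 8.60 FPKM. Its interaction was -3.02 (SE 0.31, adjusted p = 0.0014) and its difference at 24 h 0.01, with an interval from -0.47 to 0.48.

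RD20, a caleosin of oil bodies, reached the same end from the other side. With ABA it was at 615, 413 and 694 FPKM at 6 h and at 414, 559 and 415 FPKM at 24 h. With DMSO it rose from 99.97, 39.6 and 34.3 FPKM to 389, 459 and 269 FPKM, so that the interaction of -3.09 (SE 0.51, adjusted p = 0.010) came with overlapping ABA levels at the 2 times. Of the 14 markers, 11 fell with ABA and 8 fell with DMSO. RAB18, a dehydrin, kept ABA levels of 168, 373 and 101 FPKM at 24 h above DMSO levels of 46 to 60.5 FPKM, and its interaction of -2.20 (adjusted p = 0.049) was lost under 16 of 25 settings. Of 7 measured LEA proteins, hydrophilic proteins of drying seeds, 4 had a negative interaction (list median -2.46), against 2.64% of all genes tested. LEA4-5 was the most negative at -3.30 (SE 0.64, adjusted p = 0.018). That call ended in the fit that left out ABA 6 h replicate 3 (adjusted p = 0.059) and with DMSO 6 h replicate 3 as the only 6 h control (adjusted p = 0.11).

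**Figure D3:**
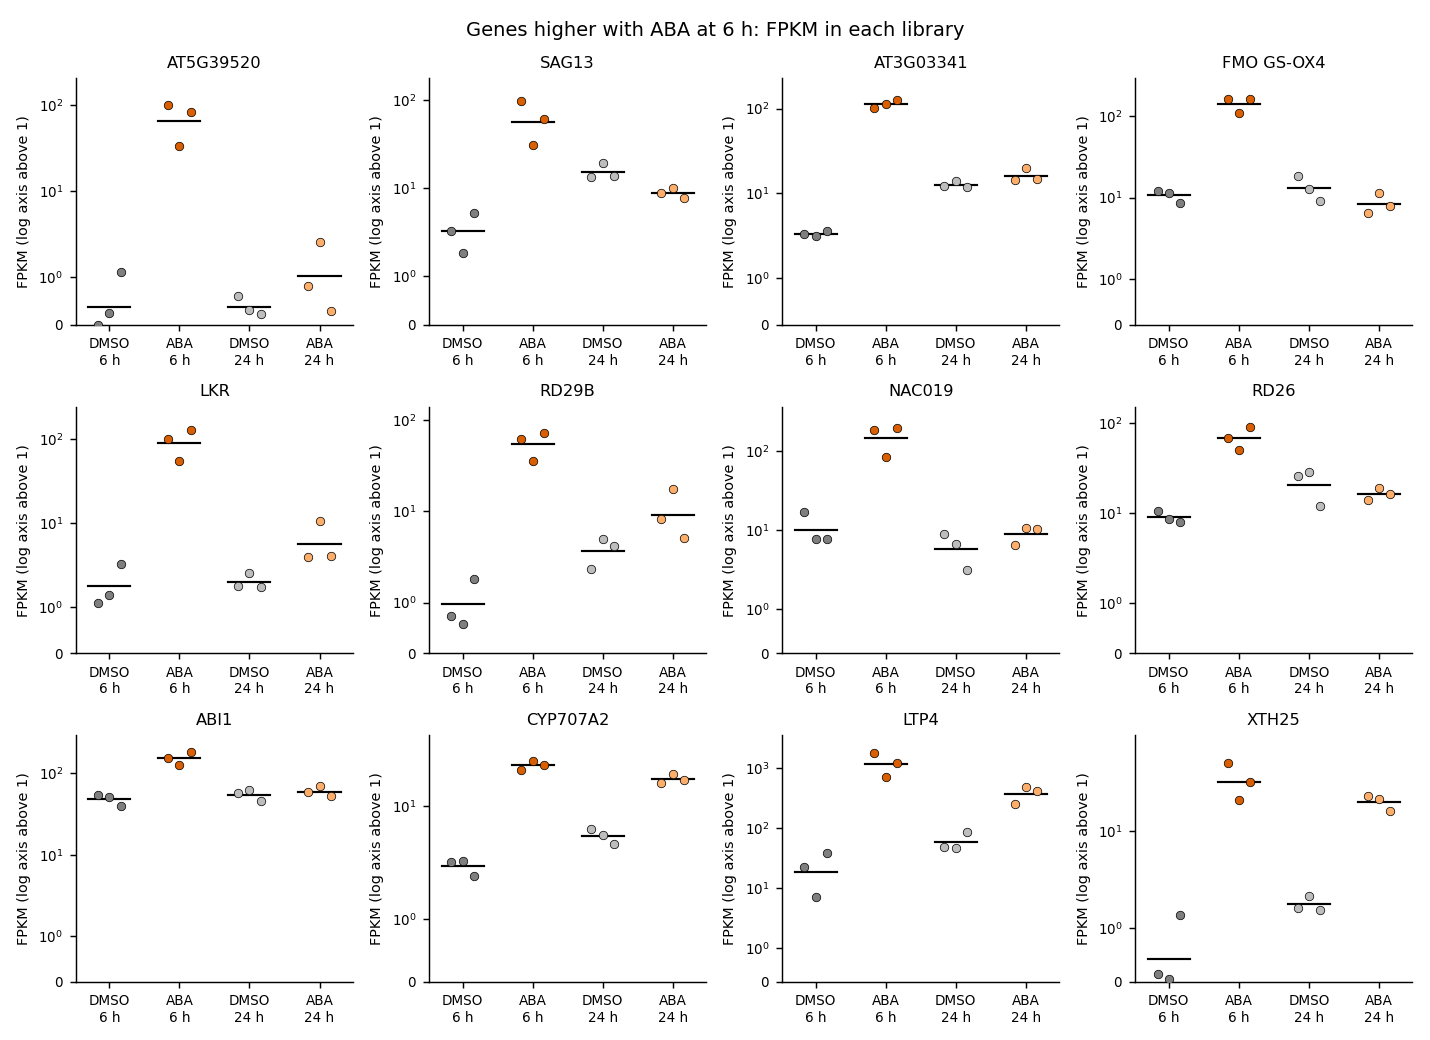
FPKM in each of the 12 libraries for 12 genes that were higher with ABA at 6 h, on a log axis above 1 FPKM and a linear one below. Points are libraries and bars are means taken on the log2(FPKM + 1) scale. ABA levels are far above DMSO at 6 h in every panel. At 24 h the groups overlap for AT5G39520, FMO GS-OX4, NAC019, RD26 and ABI1, and for CYP707A2, LTP4 and XTH25 the ABA libraries stay above DMSO (XTH25 16.2 to 23.2 FPKM against 1.54 to 2.12 FPKM).

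Genes of ABA breakdown differed among themselves in what was left at 24 h. Of 7 measured genes of ABA catabolism and conjugation, 4 were higher with ABA at 6 h and 3 of these at 24 h. A negative interaction was called for 3 (list median -0.56). The shares over all genes tested were 3.88%, 0.209% and 2.64%. The list median of the difference was 1.80 at 6 h and 0.01 at 24 h. CYP707A2, an ABA 8′-hydroxylase, was at 3.21, 3.24 and 2.38 FPKM with DMSO and 20.7, 24.9 and 22.9 FPKM with ABA at 6 h, and at 6.18, 5.47 and 4.64 FPKM with DMSO and 15.9, 19 and 17 FPKM with ABA at 24 h. No ABA library overlapped with DMSO at either time. The difference was 2.6 (SE 0.14) at 6 h and 1.51 (SE 0.14, adjusted p = 0.0018) at 24 h, the latter called under each of 25 settings. Its interaction was -1.09 (SE 0.20, adjusted p = 0.014), no longer past 2-fold without DMSO 6 h replicate 3 (adjusted p = 0.026). For CYP707A3 the difference went from 2.07 to 0.01, with ABA at 16.5, 9.77 and 16.1 FPKM at 6 h and 1.39, 1.94 and 1.65 FPKM at 24 h. The CYP707A3 interaction of -2.06 (SE 0.32, adjusted p = 0.0079) was called under each of 25 settings. CYP707A1, at -1.40 (adjusted p = 0.044, lost under 13 of 24 settings), and CYP707A4, at -0.56 and not called, were both higher with ABA at 24 h, by 1.55 (adjusted p = 0.023) and 1.24 (adjusted p = 0.040). These 24 h calls were lost under 6 and 11 of 24 settings.

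Among 8 measured genes of ABA synthesis and release, AAO3, the aldehyde oxidase of the last step, was called at -1.13 (SE 0.22, adjusted p = 0.019). Its call was lost under 6 of 25 settings. NCED3, the rate-limiting dioxygenase, was at 7.35, 8.13 and 4.11 FPKM with DMSO and 8.16, 7.21 and 8.84 FPKM with ABA at 6 h, and its interaction was -0.50 (adjusted p = 0.46).

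Some genes of amino acid and chlorophyll breakdown also had a negative interaction. LKR, the bifunctional enzyme that starts lysine degradation, was at 1.12, 1.37 and 3.26 FPKM with DMSO and 101, 55.2 and 128 FPKM with ABA at 6 h, and at 1.79, 2.55 and 1.71 FPKM with DMSO and 3.92, 10.5 and 4.05 FPKM with ABA at 24 h. ABA libraries lay above DMSO at both times, and the interaction was -3.89 (SE 0.54, adjusted p = 0.0054). With ALDH7B4, an aldehyde dehydrogenase, at -3.01 and BCKDHA, a subunit of the branched-chain ketoacid dehydrogenase, at -2.33 (lost with DMSO 6 h replicate 3 as the only 6 h control, adjusted p = 0.052), 3 of 13 measured genes of lysine and branched-chain amino acid breakdown were called. Negative interactions were called for 5 of 12 measured genes of chlorophyll breakdown and senescence. The share over all genes tested, for this list and the one before, was 2.64%. PAO, which opens the chlorophyll ring, was at 260, 155 and 216 FPKM with ABA at 6 h and 52.7, 56.4 and 47.3 FPKM at 24 h, against 33.6 to 41 FPKM and 50.6 to 65.6 FPKM with DMSO. Its interaction was -2.59 (SE 0.27, adjusted p = 0.0014), and those of PPH, the pheophytinase, and SGR1, the magnesium dechelatase, were -1.89 and -1.50. The SGR1 level with ABA was 20.4 to 27.1 FPKM at 6 h and 27.3 to 29.5 FPKM at 24 h, and it was DMSO that rose, from 8.37 to 9.01 FPKM to 27.7 to 32.7 FPKM. PAO, PPH, SGR1, LKR and ALDH7B4 were called under each of 25 settings. For chlorophyll breakdown, 4 to 6 genes were called when a library was left out.

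Genes of the leaf surface had interactions in both directions. Of 18 measured lipid transfer proteins and wax enzymes, 6 had a negative interaction and 1 a positive one (2.64% and 1.62% of all genes tested). LTP4 was at 22.8, 7.09 and 38.4 FPKM with DMSO and 1802, 713 and 1250.4 FPKM with ABA at 6 h, and at 49.6, 47.6 and 87 FPKM with DMSO and 260, 499 and 414 FPKM with ABA at 24 h. All ABA libraries were above all DMSO libraries at both times. The difference was 5.90 (SE 0.52) at 6 h and 2.66 (SE 0.52, adjusted p = 0.046) at 24 h. Its interaction of -3.24 (adjusted p = 0.029) was lost under 7 of 25 settings, and its 24 h call under 11. LTP3, a near neighbour in sequence whose reads may be shared with LTP4, had an interaction of -2.31 (adjusted p = 0.019). The call ended when ABA 6 h replicate 1 (adjusted p = 0.054) or ABA 6 h replicate 3 (adjusted p = 0.060) was left out, or DMSO 24 h replicate 1 (adjusted p = 0.052). CER1, which makes wax alkanes, was called at -2.58 (lost under 4 of 25 settings, adjusted p up to 0.090), and its ABA level of 144 to 168 FPKM at 24 h was above the 55.1 to 95.8 FPKM of DMSO without passing the test (difference 1.01).

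**Figure D4:**
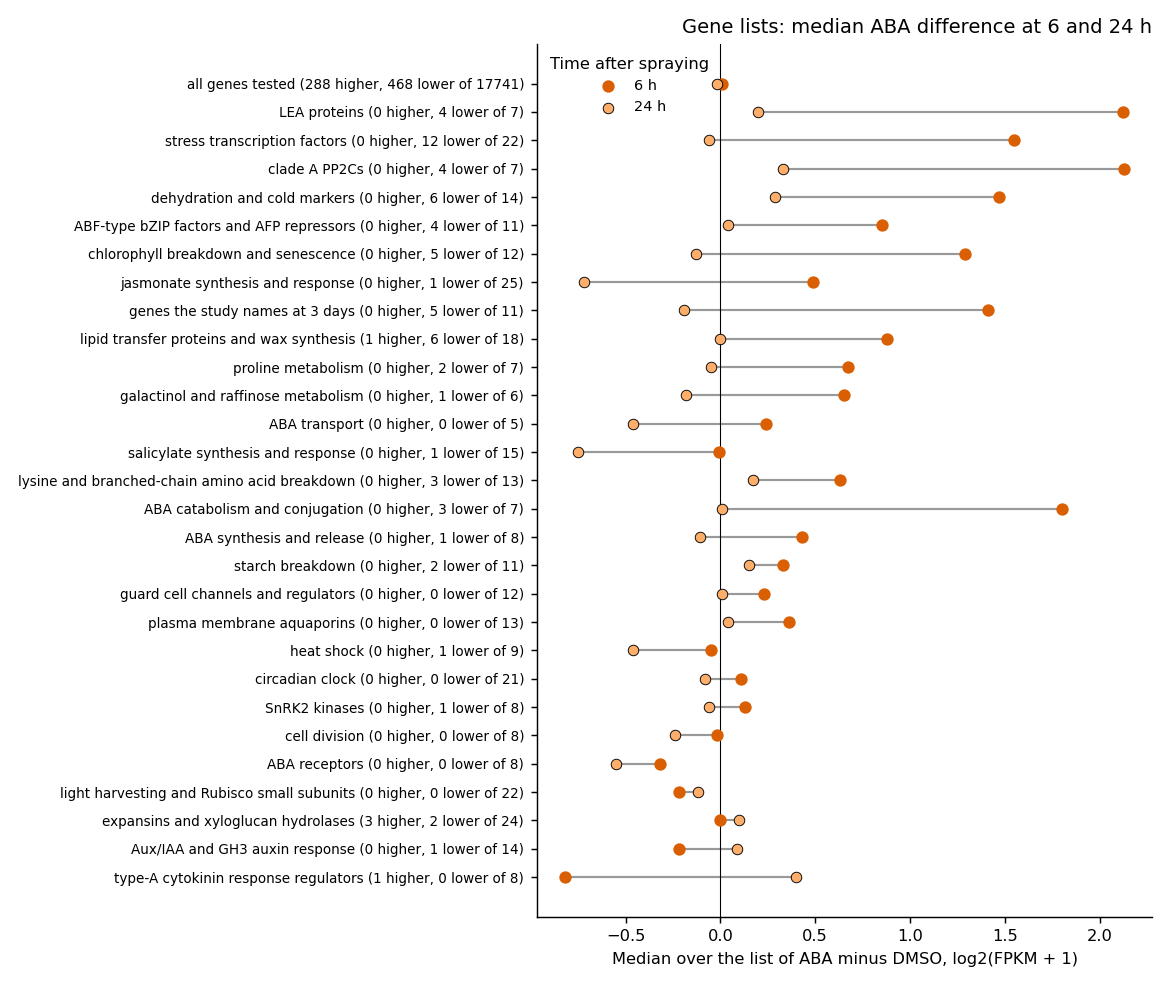
Median difference between ABA and DMSO over the measured genes of each of 28 lists, in log2(FPKM + 1), at 6 h (dark) and 24 h (light); labels give the genes called higher and lower in the interaction and the genes measured. The medians of the clade A PP2Cs (2.13 and 0.33) and the stress transcription factors (1.55 and -0.06) move towards 0, and that of the type-A response regulators goes from -0.82 to 0.40.

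Among the 288 genes with a positive interaction, those that the authors' table describes as ribosomal proteins were the largest group noticed. This group was chosen after the values were seen, so its counts are a description. Of 310 measured genes on the nuclear chromosomes, 89 were called higher in the interaction (28.7%, against 1.62% of all genes tested), which was 30.9% of the positive calls, and none (0 genes) was called lower. Together the 310 genes made up 4.89, 5.43 and 5.80% of the FPKM sum in DMSO 6 h replicates 1, 2 and 3 and 2.39, 3.26 and 2.58% with ABA. At 24 h they made up 2.83, 2.23 and 3.66% with DMSO and 3.17, 2.78 and 3.6% with ABA. The DMSO 6 h libraries stood apart from the other 9, which overlapped with each other. At 6 h 136 of the 310 were lower with ABA, at 24 h none (0 genes), and 99 fell with DMSO from 6 to 24 h. The list medians were -0.92 at 6 h, 0.09 at 24 h, -0.82 for the DMSO change and 0.22 for the ABA change.

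The direction was widely shared, with 291 of the 310 interactions above 0, but the count of calls was not stable. It was 7 without ABA 6 h replicate 3, 11 without DMSO 24 h replicate 1, 12 without ABA 6 h replicate 1 or ABA 24 h replicate 3, 18 without DMSO 6 h replicate 2, 20 without ABA 24 h replicate 1, 35 without DMSO 6 h replicate 1, 49 without DMSO 24 h replicate 2, 52 without DMSO 6 h replicate 3 and 169 without DMSO 24 h replicate 3, while the median interaction stayed between 0.83 and 1.24. With DMSO 6 h replicate 3 as the only 6 h control, 8 were called and the median was 0.94. Ribosomal protein genes are short, and many have near-identical copies between which the authors' FPKM may divide reads. By gene length, the median interaction of ribosomal protein genes was 1.1 up to 1000 bases (28 genes) and 1.2 from 1000 to 1500 (99 genes). It was 1.1 from 1500 to 2000 bases (126 genes), 0.81 from 2000 to 3000 (49 genes) and 0.51 over 3000 (8 genes). Among the other genes tested the medians were 0.15, 0.03, -0.01, -0.07 and -0.09 in the same order. Whether gene length plays a part in the interaction was not tested. AT3G11120, of the L41 family, was the ribosomal protein gene with the most positive interaction among the named genes. It was at 1284, 671 and 704 FPKM with DMSO and 125, 199 and 149 FPKM with ABA at 6 h, and at 328, 112 and 502 FPKM with DMSO and 421, 220.4 and 389 FPKM with ABA at 24 h. The interaction was 2.76 (SE 0.67, adjusted p = 0.038), lost under 10 of 25 settings (adjusted p up to 0.17).

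For XTH31, AT1G06830 and EXPA5, which had a positive interaction, the ABA level itself rose from 6 to 24 h. XTH31, a xyloglucan hydrolase of expanding tissue, was at 191, 213 and 88.6 FPKM with DMSO and 4.67, 12.9 and 7.71 FPKM with ABA at 6 h, and at 104, 90.4 and 252 FPKM with DMSO and 52.7, 87 and 107 FPKM with ABA at 24 h. The groups were separate at 6 h and overlapped at 24 h. Its interaction was 3.38 (SE 0.66, adjusted p = 0.018), lost without ABA 6 h replicate 3 (adjusted p = 0.057), DMSO 24 h replicate 1 (adjusted p = 0.052) or ABA 24 h replicate 3 (adjusted p = 0.0501), and with DMSO 6 h replicate 3 as the only 6 h control (adjusted p = 0.12). AT1G06830, a glutaredoxin family protein, was at 76.3, 53.5 and 27.2 FPKM with DMSO and 3.41, 1.95 and 2.42 FPKM with ABA at 6 h, and at 49.1, 30.2 and 81.2 FPKM with DMSO and 32.7, 35.9 and 28.4 FPKM with ABA at 24 h. ABA libraries were all below DMSO at 6 h and mixed with them at 24 h. Its interaction of 3.19 (SE 0.53, adjusted p = 0.010) was lost with DMSO 6 h replicate 3 as the only 6 h control (adjusted p = 0.059).

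Of 24 measured expansins and xyloglucan hydrolases, 3 had a positive interaction and 2 a negative one (1.62% and 2.64% of all genes tested), with a list median of 0.21. EXPA5, an expansin that loosens walls, was called at 2.13 and went with ABA from 3.78, 12.1 and 8.07 FPKM to 31, 33.1 and 32.6 FPKM, within the DMSO range of 20.4 to 47.6 FPKM at 24 h. EXPA11 was called at 1.71, and both calls were lost under at least 10 of 25 settings. The pectin lyase-like gene AT5G63180, at 2.33 (adjusted p = 0.020), and the gibberellin-regulated AT1G22690, at 2.39 (adjusted p = 0.021), remained below DMSO at 24 h in every library, with differences of -0.84 and -1.24 that did not pass the test. The first call was lost without DMSO 24 h replicate 1 (adjusted p = 0.054) or ABA 24 h replicate 3 (adjusted p = 0.051), and the second was lost without those libraries (adjusted p = 0.054 and 0.055), without ABA 6 h replicate 1 (adjusted p = 0.061) or without ABA 24 h replicate 1 (adjusted p = 0.051). Both were lost with DMSO 6 h replicate 3 as the only 6 h control (adjusted p = 0.096 and 0.085). GASA6, also gibberellin-regulated, had the most positive interaction of all, 3.74 (SE 0.98, adjusted p = 0.048). Its DMSO libraries ranged from 28 to 109 FPKM at 6 h and from 1.79 to 27.7 FPKM at 24 h, and its call was lost under 15 of 25 settings.

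Type-A response regulators, which are induced by cytokinin and dampen its signal, had the most positive list median, 1.09 over 8 measured genes, with 1 call. ARR6 was at 27.3, 21.1 and 14.8 FPKM with DMSO and 3.16, 8.55 and 7.30 FPKM with ABA at 6 h, and at 3.66, 4.58 and 17.2 FPKM with DMSO and 20.7, 11.5 and 22.2 FPKM with ABA at 24 h. The difference went from -1.63 to 1.24, and the latter did not pass the test (adjusted p = 0.28). The interaction was 2.88 (SE 0.68, adjusted p = 0.034), lost under 10 of 25 settings (adjusted p up to 0.19). ARR7 had an interaction of 1.90 that missed the threshold (adjusted p = 0.059). Without 1 library at a time, 0 to 4 genes of the list were called.

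Genes called at both times were few. They numbered 40, 22 of them higher and 18 lower, and the count was 7 without ABA 24 h replicate 2, 10 without ABA 24 h replicate 3, 12 without DMSO 24 h replicate 2, 17 without DMSO 24 h replicate 1, 23 without ABA 6 h replicate 3, 25 without DMSO 24 h replicate 3 and 26 without DMSO 6 h replicate 2. XTH25, a xyloglucan endotransglucosylase, was at 0.143, 0.0562 and 1.36 FPKM with DMSO and 50.2, 20.9 and 32.4 FPKM with ABA at 6 h, and at 1.62, 2.12 and 1.54 FPKM with DMSO and 23.2, 21.5 and 16.2 FPKM with ABA at 24 h. The ABA libraries were far above DMSO at both times. The differences were 4.56 (SE 0.33) and 2.94 (SE 0.33, adjusted p = 0.0068), and the interaction of -1.62 did not pass the test (adjusted p = 0.064). AT3G53980, of the lipid transfer protein family, was the gene higher at both times with the largest difference at 24 h. It was at 5.01, 1.51 and 0.675 FPKM with DMSO and 8.62, 10.2 and 5.23 FPKM with ABA at 6 h, and at 4.38, 7.35 and 7.11 FPKM with DMSO and 53.1, 185 and 70.1 FPKM with ABA at 24 h. Its difference was 1.58 at 6 h and 3.65 (SE 0.50, adjusted p = 0.013) at 24 h, and the interaction of 2.07 did not pass the test (adjusted p = 0.11). For KCS19, a fatty acid elongase, the differences were 1.93 and 2.02, the latter lost without ABA 24 h replicate 2 (adjusted p = 0.064).

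The defence-related genes AT3G16530, PR1 and PR4 were lower with ABA at both times. AT3G16530, a legume lectin family protein, was at 44.9, 53.3 and 103 FPKM with DMSO and 5.25, 2.26 and 2.71 FPKM with ABA at 6 h, and at 44.6, 97.8 and 78.8 FPKM with DMSO and 4.35, 2.05 and 3.76 FPKM with ABA at 24 h. The groups were apart at both times by about the same amount, with differences of -3.92 (SE 0.37) and -4.06 (SE 0.37, adjusted p = 0.0018) and an interaction of -0.14 (95% interval from -1.30 to 1.01). PR1, the marker of salicylate-dependent defence, was at 3.76, 9.44 and 20.5 FPKM with DMSO and 0.917, 0.423 and 0.485 FPKM with ABA at 6 h, and at 47.9, 66 and 46.2 FPKM with DMSO and 4.62, 3.43 and 1.87 FPKM with ABA at 24 h. PR1 rose with DMSO by 2.39 and with ABA by 1.38 between these times. Its differences between ABA and DMSO were -2.68 at 6 h and -3.69 at 24 h (SE 0.43, adjusted p = 0.0069). The interaction of PR1 was not called, so a larger difference at 24 h is not shown. The 24 h calls of XTH25, AT3G53980, AT3G16530 and PR1 were made under each of 25 settings. PR4, a chitin-binding protein, had differences of -3.87 and -3.45, the latter lost without DMSO 24 h replicate 2 (adjusted p = 0.057) or ABA 24 h replicate 2 (adjusted p = 0.064) or 3 (adjusted p = 0.061).

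Of the 93 genes called at 24 h, 53 were not called at 6 h, 15 of them higher with ABA and 38 lower. The interaction was called for 12 of the 53, positive for 7 of the higher genes and negative for 5 of the lower ones, and it was not called for the other 41. AT1G03495, an HXXXD-type acyltransferase, was at 3.28, 2.78 and 2.83 FPKM with DMSO and 1.37, 1.92 and 1.36 FPKM with ABA at 6 h, and at 2.1, 3.13 and 2.16 FPKM with DMSO and 6.31, 12.2 and 16.9 FPKM with ABA at 24 h. ABA libraries lay below DMSO at 6 h and above it at 24 h, and the interaction was 2.45 (SE 0.37, adjusted p = 0.0078), lost in a fit of all 29 libraries (adjusted p = 0.0501). Its 24 h difference of 1.81 (adjusted p = 0.016) was lost without DMSO 24 h replicate 1 (adjusted p = 0.056) or ABA 24 h replicate 2 (adjusted p = 0.069), and in the fit of all 29 libraries (adjusted p = 0.11). AT5MAT, the anthocyanin malonyltransferase, was at 0, 0 and 0.163 FPKM with DMSO and 0, 1.15 and 0.0467 FPKM with ABA at 6 h, and at 0.753, 0.961 and 0.231 FPKM with DMSO and 5.45, 9.04 and 13.8 FPKM with ABA at 24 h. The groups separated only at 24 h, and the interaction of 2.29 (SE 0.48, adjusted p = 0.023) was lost under 8 of 24 settings. AT1G03940, a close relative of AT1G03495, and TTG2, a WRKY factor of trichomes and seed coat pigment, were called at 2.47 and 1.48, both lost under at least 12 settings.

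Of the 5 late genes that were lower with ABA, AT5G17760, a P-loop nucleoside triphosphate hydrolase, had the smallest adjusted p. It was at 9.73, 9.32 and 9.80 FPKM with DMSO and 14.7, 12.2 and 14.4 FPKM with ABA at 6 h, and at 11.9, 13.3 and 10.2 FPKM with DMSO and 4.71, 4.62 and 2.7 FPKM with ABA at 24 h. The ABA libraries lay above DMSO at 6 h and below it at 24 h. The interaction was -1.84 (SE 0.24, adjusted p = 0.0042) and the 24 h difference -1.37 (adjusted p = 0.0091), and both were called under each of 25 settings. UGT85A1, a glycosyltransferase that acts on zeatin, fell with ABA from 8.04, 6.02 and 11.8 FPKM to 1.77, 1.48 and 1.26 FPKM, while DMSO read 4.47 to 6.93 FPKM over both times. Its interaction was -1.91 (SE 0.29, adjusted p = 0.0078) and was called under each of 25 settings, while its 24 h difference of -1.40 (adjusted p = 0.016) was lost under 4 of them. GRX480, a glutaredoxin induced by salicylate, had the most negative 24 h difference of the 5, -2.47 (SE 0.45, adjusted p = 0.036), with DMSO at 45.2, 47.4 and 20.4 FPKM and ABA at 7.22, 4.70 and 4.98 FPKM. At 6 h its libraries read 2.73 to 5.46 FPKM with DMSO and 1.57 to 9.47 FPKM with ABA and overlapped. The 24 h call was lost under 9 of 25 settings (adjusted p up to 0.143), and the interaction of -2.54 (adjusted p = 0.044) under 14.

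**Figure D5:**
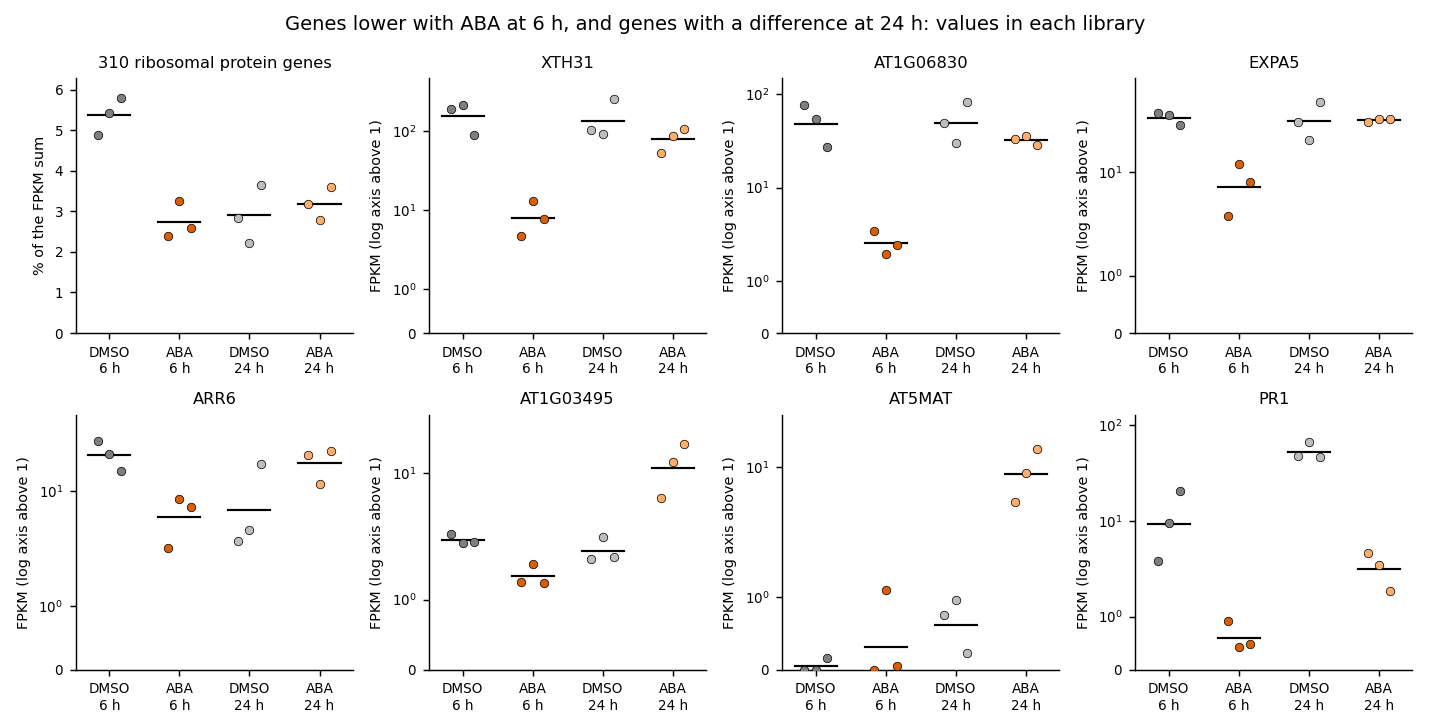
Values in each of the 12 libraries for the share of 310 ribosomal protein genes in the FPKM sum (linear axis from 0) and for 7 genes in FPKM (log axis above 1); points are libraries and bars are means, taken on the log2(FPKM + 1) scale for FPKM. The ribosomal share is highest in DMSO 6 h (4.89 to 5.80%), XTH31, AT1G06830 and EXPA5 are lowest in ABA 6 h, AT1G03495 and AT5MAT are highest in ABA 24 h, and PR1 is lower with ABA at both times.

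In other lists few or no members were called. Over all genes tested, 1.62% were called higher and 2.64% lower in the interaction. Few or no calls in lists this short therefore do not set them apart. Of 21 measured clock genes none (0 genes) was called in the interaction, although 9 rose and 9 fell with ABA and 9 rose and 8 fell with DMSO between 6 and 24 h. No call was made in the light harvesting and Rubisco small subunit list (22 measured), the plasma membrane aquaporins (13), the guard cell list (12), cell division (8) or ABA transport (5). Jasmonate genes had 1 call of 25, JAZ10 at -2.66 (lost under 4 of 24 settings), and salicylate genes 1 of 15, EDS5 at -1.07 (lost under 9 of 25), while 10 of these 15 rose with DMSO. The list medians of the interaction were -0.99 for jasmonate, -0.79 for salicylate and -0.82 for ABA transport genes, against -0.05 over all genes tested. Those of the clock, light harvesting, aquaporin, guard cell and cell division lists lay between -0.29 and 0.12. VSP2, a vegetative storage protein of the jasmonate response, shows how wide the spread can be. It was at 51.6, 2.84 and 23 FPKM with DMSO and 813, 825 and 851 FPKM with ABA at 6 h, and at 15.1, 5.15 and 6.59 FPKM with DMSO and 25, 49.3 and 107 FPKM with ABA at 24 h. Its interaction was -3.10 with an SE of 1.11 (adjusted p = 0.12).

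A list of 11 genes that the study names for their levels 3 days after a spray of AMF4, a synthetic receptor agonist, was measured in full. RD29B, LEA4-5, RD26, HAI1 and RAB18 had a negative interaction and were described above. For P5CS1, which makes proline, the difference of 1.41 at 6 h was followed by 0.43 at 24 h, with an interaction of -0.98 (adjusted p = 0.12). The interactions of MYB60, PIP2;3, MPK3, NCED3 and SNRK3.10 lay between -0.50 and 0.73 and did not pass the test.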

How the data were processed

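Arabidopsis leaf RNA was sequenced and the authors aligned the reads with TopHat to the TAIR10 genome, used Cufflinks to obtain FPKM (the submitters' notes name TopHat2, and tool versions were not given in the sources used here), and deposited FPKM per gene and library as 1 table. The study's methods state duplicate biological replicates, and the labels hold 3 libraries for each of these groups. Gene symbols came from the authors' table and RefSeq, in which 32817 of the 33559 identifiers were found.

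From the FPKM values, log2(FPKM + 1) was computed with a pseudocount of 1, genes with at least 1 FPKM in at least 2 of the 12 libraries were kept, and 1 mean per group was fitted with limma 3.58.1 in R 4.3.3 (empirical Bayes with a trend, residual df 8, prior df 3.67, two-sided tests, Benjamini-Hochberg over the 17741 genes). Calls needed an adjusted p under 0.05 and a log2 difference above 1 or below -1. A count test was not used, since FPKM are not counts, and exact read totals are unknown.

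Genes named were the 12 per direction with the largest interaction, and up to 6 per direction called at both times, by the size of the 24 h difference. By the same size, up to 6 per direction were added that were called at 24 h and in the interaction but not at 6 h. List members called in the interaction were also named, with up to 3 others per list by the 6 h difference. The genes the study names at 3 days after AMF4 completed the set. Members and lists were chosen with earlier results of these data known. The 28 gene lists were written by hand, and the ribosomal and anthocyanin lists and the counts of list members under each setting were added after the values were seen. Promoter windows were read from the RefSeq genome TAIR10.1, matched by gene identifier, since no promoter table was used here.

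Alternatives were pseudocounts of 0.1 and 0.5, other filters, scaling by median of ratios or quantiles, all 29 libraries in one fit, no trend and array weights. Others were a replicate block, the adjusted p alone, each library left out, and DMSO 6 h replicate 3 as the only 6 h control. The adjusted p alone kept the main fit without the limit on the fold, so it could not end a call.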

Additional observations from a re-analysis of the deposited data

Results flagged for a closer look

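The effect of ABA differed between 6 and 24 h by the test of the difference itself, the limma interaction of treatment and time, in 288 genes where it was higher at 24 h and in 468 where it was lower. The named genes among them are given here with their interaction on the log2(FPKM + 1) scale, and no explanation of these values was tested. Of the 92 named genes, 23 were called under each other setting in which they were tested (24 settings for GLYI7, 25 for the rest). Another 28 were lost in 1 to 5 settings and 41 in more than 5.

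The most negative values were -5.02 for AT5G39520, -4.50 for SAG13, -4.39 for AT3G03341, -4.36 for AT1G02470, a polyketide cyclase family gene, -4.18 for FMO GS-OX4, -4.15 for CYP89A9, -4.13 for XTH24, -4.00 for RNS1, -4.00 for the glyoxalase GLYI7, -3.89 for LKR, -3.88 for AT1G09500 and -3.76 for LBD1. Among PP2Cs, kinases, ABF-type and AFP genes and GBF3 the interaction was -2.84 for AFP1, -2.59 for HAI1, -2.13 for SNRK2.7 and -1.94 for HAI2. It was -1.93 for GBF3, -1.82 for ABI2, -1.80 for AFP3, -1.53 for ABI1 and -1.08 for ABI5. Among stress transcription factors it was -3.31 for ORE1, -3.18 for NAC019, -3.11 for RD26, -2.76 for RAP2.6, -2.44 for NAP, -2.40 for MYB2, -2.32 for MYB74, -2.25 for HB7, -1.86 for MYB102, -1.71 for MYB44, -1.36 for NAC032 and -1.03 for NAC055.

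Among dehydration and LEA genes it was -3.68 for RD29B, -3.30 for LEA4-5, -3.09 for RD20, -3.02 for XERO2, -2.51 for LEA18, -2.47 for SAG21, -2.20 for RAB18 (AT5G66400), -1.92 for EM6, -1.90 for COR47 and -1.41 for ERD10. In metabolism it was -3.01 for ALDH7B4, -2.72 for the amylase AMY1, -2.33 for BCKDHA, -2.06 for CYP707A3, -1.53 for PRODH2, -1.51 for BAM1 (AT3G23920), -1.40 for CYP707A1, -1.33 for PRODH1, -1.21 for SIP2, -1.13 for AAO3 and -1.09 for CYP707A2. Chlorophyll breakdown genes were at -2.97 for SGR2 (AT4G11910), -2.59 for PAO, -1.89 for PPH and -1.50 for SGR1. Surface and wall genes were at -3.24 for LTP4, -2.58 for CER1, -2.31 for LTP3, -2.29 for WSD1, -1.94 for KCS2, -1.34 for CER3 and -1.01 for XTH30. The remaining negative values were -2.66 for JAZ10, -2.54 for GRX480, -2.52 for the auxin-conjugating enzyme GH3.6, -1.91 for UGT85A1, -1.87 for the small heat shock protein HSP17.6II, -1.84 for AT5G17760, -1.59 for HWI1, -1.07 for EDS5 and -1.02 for AT5G35735.

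Positive values were 3.74 for GASA6, 3.38 for XTH31, 3.19 for AT1G06830, 2.88 for ARR6, 2.76 for AT3G11120, 2.47 for AT1G03940, 2.45 for AT1G03495, 2.39 for AT1G22690, 2.33 for AT5G63180, 2.29 for AT5MAT, 2.29 for AT3G12965, annotated as another RNA, 2.22 for AT2G37600, an L36e ribosomal protein, 2.13 for EXPA5, 1.80 for AT3G22183, 1.72 for AT3G24750, 1.71 for EXPA11, 1.48 for TTG2 and 1.47 for LTP6.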

How the results depend on the processing

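The interaction of ABA and time, called in 756 genes, had the same sign under every alternative for each of these genes that was tested there (583 with a mean of at least 5 FPKM, 733 with at least 1 and 756 in the others). The genes had been picked for a large interaction in the same libraries, so a reversed sign was unlikely from the start. The shared sign is therefore no measure of stability. Leaving out a library in turn gave 198 to 1301 calls for the interaction, 11 to 125 for ABA against DMSO at 24 h (93 in all libraries) and 7 to 53 for genes called at both times (40). Without a filter on low FPKM the 24 h count was 35 and the count at both times 16, and with a mean of at least 5 FPKM the 24 h count was 61. Array weights gave 1410 for the interaction, 197 at 24 h and 86 at both times. The adjusted p alone, with no limit on the fold, gave 3266 at 6 h in place of 1275, 5356 with ABA over time in place of 2383, 6647 with DMSO over time in place of 2703 and 66 at both times. DMSO 6 h replicate 3 as the only 6 h control gave 318 interactions. With a replicate block the interaction was called in 649 genes, 606 of them shared with the fit without it, and 62 ribosomal protein genes were called. Same-numbered libraries did not deviate together (r from -0.25 to 0.24 over 18 pairs), so the numbers were not read as a pairing. Of the calls, 10 of the 288 positive and 87 of the 468 negative ones were made under all 25 settings. A gene not tested under a setting counts here as not called. The table holds no read totals, so counting error was not modelled, and changes of genes near 1 FPKM were the least certain.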

Other observations

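Anthocyanin pathway genes were looked at after the late calls of AT5MAT and TTG2 had been seen, so the choice of the list rests on these values. Of 17 measured genes, 6 were higher with ABA than with DMSO at 24 h by the limma test, against 0.209% of all genes tested. Among them were LDOX at 3.69 (adjusted p = 0.033), DFR at 3.46 (adjusted p = 0.035) and the glycosyltransferase gene UF3GT at 2.92 (adjusted p = 0.025). The others were AT5MAT at 2.61 (adjusted p = 0.011) and the regulators TT8 at 1.53 and TTG2 at 1.53 (both adjusted p = 0.024). The count of 6 became 0 without ABA 24 h replicate 2, 1 without DMSO 24 h replicate 1 or ABA 24 h replicate 3 and 2 without DMSO 24 h replicate 3, and 0 with a pseudocount of 0.1 or with all 29 libraries in one fit. At 6 h the MYB regulators PAP1 and MYB90 were higher with ABA, by 2.81 and 2.22, and at 24 h their differences of 0.79 and 1.23 did not pass the test. The interaction was called for TTG2 and AT5MAT, and leaving out a library in turn gave 0 to 6 positive calls and up to 1 negative call in the list. Those of DFR and LDOX, 3.24 and 3.05, missed the threshold (adjusted p = 0.056 and 0.077). The genes at the start of the pathway had 24 h differences near 0, as CHS at 0.00 and F3H at 0.15, while 13 of the 17 rose with ABA and 11 with DMSO from 6 to 24 h.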
